A study of Mus musculus with 8 samples.

Results

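The subcortical maternal complex is an assembly of proteins beneath the membrane of the mouse egg and early embryo. The genes described here are Nlrp5, Ooep, Tle6, Khdc3, Padi6, Zbed3, Nlrp2 and Nlrp4f, chosen by symbol as genes whose proteins have been assigned to the complex or shown to associate with it. All 8 were found among the 35976 symbols of the count table, and all 8 were among the 16847 genes that had enough counts to be tested. The values are polyA RNA sequencing counts from full-grown oocytes, the stage at the end of oocyte growth and before meiosis resumes. The libraries form 4 groups of 2, namely oocytes labelled as a double knockout of H2A.Z.1 and H2A.Z.2 (H2A.Z DKO), their wild-type controls (H2A.Z CTR), Mll2 knockout oocytes (Mll2 KO) and Mll2 wild-type oocytes (Mll2 WT). H2A.Z is a histone variant and MLL2, encoded by Kmt2b, is a histone H3 lysine 4 methyltransferase. The design sets each mutant against its own controls and then sets the mutants beside each other. Each library pooled about 20 oocytes stripped of the zona pellucida, and its cDNA came from the SMART-Seq v4 kit, with 200 pg of cDNA entering a Nextera XT library. The Cre driver, strain and age of the mice were not given in the sources used here, nor is whether the libraries of a group came from separate animals, so each p-value measures only the spread between libraries, which may be technical.

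The core of the complex is formed by NLRP5, also called MATER, OOEP, also called FLOPED, and TLE6. KHDC3, also called FILIA, joins through this core, and PADI6 is needed for the cytoplasmic lattices, fibrous structures of the oocyte that store maternal proteins. The transcripts are made during oocyte growth and the proteins persist into cleavage, so that mouse embryos of mothers lacking core members arrest early although the oocytes can mature.

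The libraries held between 20309233 and 30087863 counts each. The labels were first set against the targeted genes. Kmt2b had 8.73 and 9.28 normalised CPM (counts scaled to library size and composition with edgeR's TMM factors) in Mll2 KO libraries, against 41.9 and 42.4 CPM in Mll2 WT libraries. H2afz, which encodes H2A.Z.1, had 322 and 317 CPM in libraries labelled H2A.Z DKO, against 23.9 and 30.0 CPM in H2A.Z CTR libraries. H2afv, which encodes H2A.Z.2, had 285 and 294 CPM in libraries labelled H2A.Z DKO, against 107.9 and 107.2 CPM in H2A.Z CTR libraries. The target of the Mll2 KO was thus lower under its label, while both targets of the DKO were higher under theirs (edgeR quasi-likelihood test with Benjamini-Hochberg adjustment, log2 fold changes 3.56 ± 0.14 (SE), adjusted p = 6.63e-10, and 1.43 ± 0.10, adjusted p = 1.73e-07). The targeted genes also moved outside their own label. H2afz was higher in Mll2 KO than in Mll2 WT libraries (1.28 ± 0.15, edgeR adjusted p = 1.21e-05), while H2afv did not pass there (0.19 ± 0.10, 0.165). Kmt2b was higher under the DKO label (0.49 ± 0.15, 0.018). Between the control groups, Kmt2b was lower in H2A.Z CTR than in Mll2 WT libraries (-1.53 ± 0.14, 1.1e-06). There H2afz (1.93 ± 0.15, 2.69e-07) and H2afv (0.30 ± 0.10, 0.025) were higher. Which part of each gene was deleted is not given in the sources used here. Every direction given below for the H2A.Z line is that of the libraries labelled DKO, which went against the label at H2afz and H2afv.

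The 10 oocyte markers, among them Gdf9, Bmp15 and Zp3, summed to between 12476 and 22341 CPM, and none was at 0 in any library. Their sum was 14609 and 12476 CPM in Mll2 KO libraries, against 15068 and 18825 CPM in Mll2 WT libraries. Granulosa and cumulus markers (12 genes) summed to 126 and 127 CPM in libraries labelled DKO, against 94.2 and 95.1 CPM in H2A.Z CTR libraries, and to 101.5 CPM in each Mll2 KO library, against 91.9 and 94.2 CPM in Mll2 WT libraries. Both sums were higher in the mutant without overlap. Of these markers, Fshr, singled out after its values were seen, had 18.7 and 18.9 CPM in libraries labelled DKO, against 1.29 and 0.60 CPM in H2A.Z CTR libraries, and 7.25 and 7.70 CPM in Mll2 KO libraries, against 0.99 and 0.59 CPM in Mll2 WT libraries. In Mll2 KO libraries other markers of this list moved both ways. Nr5a2 was higher (58.2 and 56.5 CPM, against 34.5 and 33.9 CPM in Mll2 WT libraries). Cyp19a1 was lower (27.9 and 30.0 CPM, against 47.8 and 51.2 CPM), as was Kitl (4.21 and 4.03 CPM, against 7.44 and 7.19 CPM). Amh was at 0 in 6 libraries, and Inha, Inhba and Hsd17b1 had at most 1.42 CPM in any library. Theca and stroma markers (9 genes) summed to 27.3 and 24.1 CPM in libraries labelled DKO, against 14.3 and 16.2 CPM in H2A.Z CTR libraries. Of these markers, Cyp11a1, singled out after its values were seen, had 20.6 and 19.4 CPM, against 9.05 and 12.2 CPM. Dcn (3.68 and 2.33 CPM, against 3.26 and 2.27 CPM) and Star overlapped. Cyp17a1, Lhcgr, Col1a1, Col1a2 and Pdgfra had at most 0.621 CPM in these libraries, and Col3a1 was at 0 throughout. Blood, immune and endothelial markers (9 genes) summed to between 22.9 and 45.0 CPM, with Hba-a1, Hbb-bs and Cdh5 at 0 throughout. The part of these differences in the results below was not tested. In pooled oocytes, fewer cells and less RNA per cell cannot be told apart.

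The 3 members that passed the test in a mutant comparison were Ooep, Nlrp2 and Khdc3, and their promoters are shown because H3 lysine 4 methylation and H2A.Z are both found at promoters. The windows are from RefSeq (GRCm38.p6) and run 5′ to 3′ from 250 bases before to 50 bases after the annotated start, that of Ooep at chr9:78378539-78378838 on the minus strand, Nlrp2 at chr7:5350986-5351285 on the minus strand and Khdc3 at chr9:73102148-73102447 on the plus strand. Capitals mark E-boxes, CANNTG, the class of motif bound by basic helix-loop-helix factors such as FIGLA in oocytes. The motif is its own reverse complement, so each match stands on both strands.
Ooep: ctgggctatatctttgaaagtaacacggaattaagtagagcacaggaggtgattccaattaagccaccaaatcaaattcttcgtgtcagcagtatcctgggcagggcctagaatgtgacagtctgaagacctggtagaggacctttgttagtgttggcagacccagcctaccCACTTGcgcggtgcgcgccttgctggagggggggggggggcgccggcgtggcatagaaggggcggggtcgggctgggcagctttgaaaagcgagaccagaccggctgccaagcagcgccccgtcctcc
Nlrp2: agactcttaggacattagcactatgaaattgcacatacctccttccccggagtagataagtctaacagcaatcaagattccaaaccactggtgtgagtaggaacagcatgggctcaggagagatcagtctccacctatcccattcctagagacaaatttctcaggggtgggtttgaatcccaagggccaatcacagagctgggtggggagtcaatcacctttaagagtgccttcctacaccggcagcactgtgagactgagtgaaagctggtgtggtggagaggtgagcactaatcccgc
Khdc3: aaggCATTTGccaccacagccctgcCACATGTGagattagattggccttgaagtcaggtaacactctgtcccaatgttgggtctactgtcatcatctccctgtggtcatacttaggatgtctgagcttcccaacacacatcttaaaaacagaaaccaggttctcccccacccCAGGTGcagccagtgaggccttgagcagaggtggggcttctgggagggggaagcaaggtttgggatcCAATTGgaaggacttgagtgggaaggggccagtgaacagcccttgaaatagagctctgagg
The Khdc3 window held 5 E-boxes, with a pair overlapping in one capital run, and 2.1% of 32851 promoter windows held as many. It held 0 CpG dinucleotides. The Khdc3 window lies wholly inside the gene as placed by GENCODE M21 (chr9:73101836-73104438), so these annotations differ on where the gene starts. The Ooep window held 1 E-box and 15 CpG, and 34.6% of windows held as many CpG. The Nlrp2 window held 0 E-boxes and 3 CpG. At least 1 E-box was in 72.3% of all windows, and the median window held 7 CpG. The windows of the other members held between 1 and 4 E-boxes and between 1 and 18 CpG, so the promoters of the 8 genes shared neither measure. A match describes the letters and shows no binding.

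Among the core members, Ooep rose, Nlrp5 was lower without passing the test and Tle6 differed little in libraries labelled DKO. Ooep encodes a KH-domain-like protein and lies at chr9:78376109-78378725 on the minus strand (mm10, GENCODE M21; 3 exons). It had 6073 and 6249 CPM in libraries labelled DKO, against 4474 and 4308 CPM in H2A.Z CTR libraries. Both DKO libraries were above both controls. The fold change was 1.40, or 0.49 ± 0.12 on the log2 scale (SE, 95% interval 0.24 to 0.73, edgeR adjusted p = 0.00483). The call was lost without H2A.Z CTR replicate 2 (edgeR adjusted p = 0.0666) and without H2A.Z DKO replicate 2 (0.0597).

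Nlrp5 encodes the NACHT and leucine-rich repeat protein of the core and lies at chr7:23385889-23441922 on the plus strand. It had 875 and 898 CPM in libraries labelled DKO, against 1265 and 1200 CPM in H2A.Z CTR libraries. The groups did not overlap and both DKO libraries were low. The difference was -0.48 ± 0.17 on the log2 scale (SE, 95% interval -0.85 to -0.10) and missed the threshold when all 4 groups shared 1 estimate of the spread (edgeR adjusted p = 0.0554). It passed in 9 of 17 alternatives, among them the H2A.Z line fitted alone (-0.60, edgeR adjusted p = 3.93e-09) and with DESeq2 (-0.52, adjusted p = 0.0131). Of the 8 fits that left out a library, only the 2 without a Mll2 WT library passed. Nlrp5 did not pass when any library of the H2A.Z line was left out. The difference ran from -0.60 to -0.43 over the 8 fits. The SD of Nlrp5 over 2 libraries was 16.8 CPM in libraries labelled DKO, 45.8 CPM in H2A.Z CTR, 67.2 CPM in Mll2 KO and 288 CPM in Mll2 WT libraries, so the Mll2 WT libraries stood farthest apart.

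Tle6 encodes the core member related to Groucho corepressors and lies at chr10:81590904-81601073 on the minus strand. It had 978 and 906 CPM in libraries labelled DKO, against 925.14 CPM in each H2A.Z CTR library. The DKO values lay on both sides of the controls (log2 difference 0.026 ± 0.11, SE, 95% interval -0.21 to 0.27, edgeR adjusted p = 0.885).

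**Figure D1:**
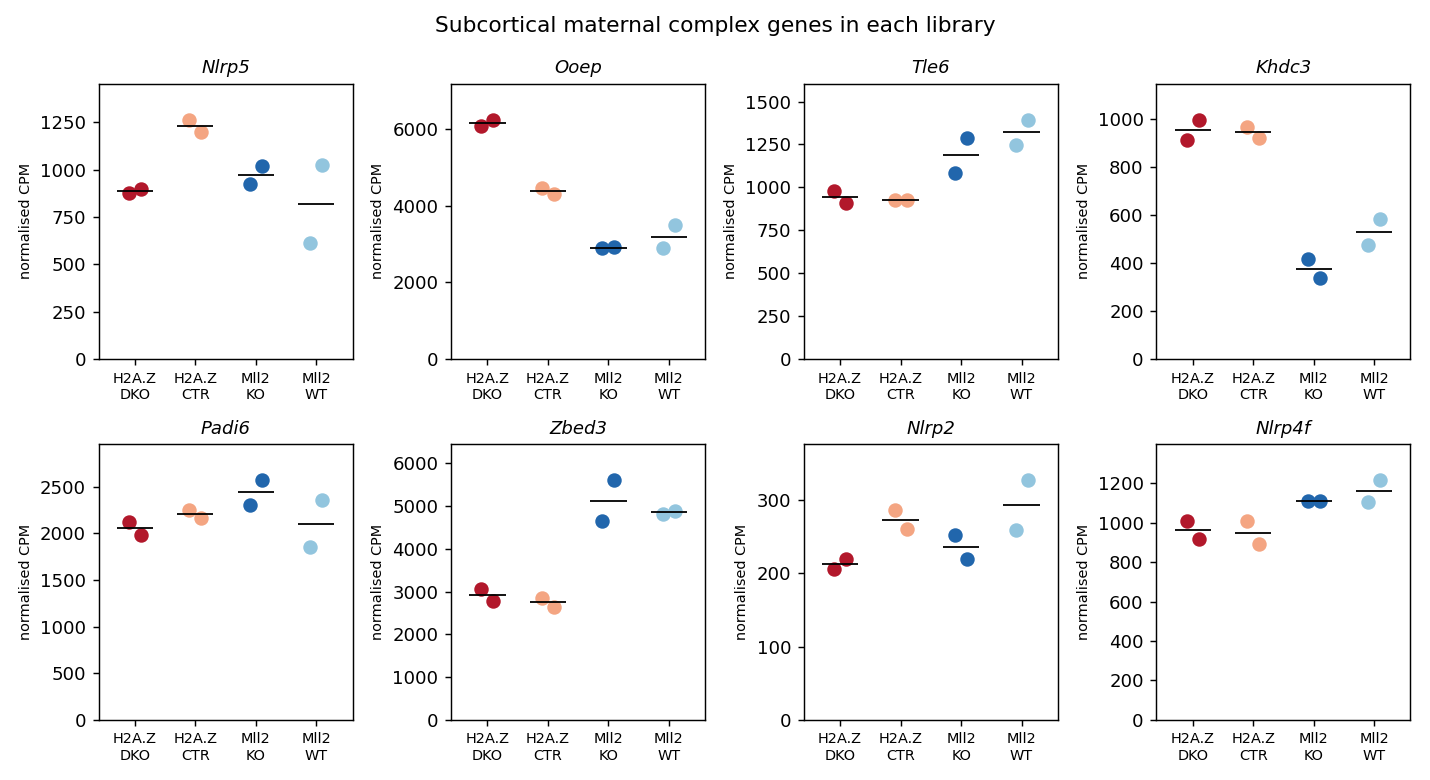
Normalised CPM (TMM scaling) of each gene in every library, with points for libraries and a bar at the mean of the 2 libraries of a group. Ooep lies at 6073 and 6249 CPM in libraries labelled H2A.Z DKO, against 4474 and 4308 CPM in H2A.Z CTR, and Khdc3 lies at 414 and 335 CPM in Mll2 KO, against 475 and 584 CPM in Mll2 WT.

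Of the members that join the core, none passed the test in libraries labelled DKO. Khdc3, whose protein binds RNA and helps chromosomes segregate faithfully in early mouse embryos, lies at chr9:73101836-73104438 on the plus strand. It had 913 and 996 CPM in libraries labelled DKO, against 967 and 920.4 CPM in H2A.Z CTR libraries (log2 difference 0.017 ± 0.12, SE, 95% interval -0.25 to 0.28, edgeR adjusted p = 0.935). The groups overlapped. Padi6, which encodes a peptidylarginine deiminase family protein and lies at chr4:140727355-140742643 on the minus strand, had 2128 and 1981 CPM in libraries labelled DKO, against 2252 and 2172 CPM in H2A.Z CTR libraries. Both DKO libraries were lower, but the difference of -0.11 ± 0.12 on the log2 scale (SE, 95% interval -0.37 to 0.15) did not pass (edgeR adjusted p = 0.548), except in the H2A.Z line fitted alone (-0.23, edgeR adjusted p = 0.00519). Zbed3, which encodes a zinc finger protein also known to bind Axin and lies at chr13:95323612-95337841 on the plus strand, had 3067 and 2776 CPM in libraries labelled DKO, against 2848 and 2647.5 CPM in H2A.Z CTR libraries. Its groups overlapped (log2 difference 0.088 ± 0.12, SE, 95% interval -0.16 to 0.34, edgeR adjusted p = 0.611).

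The remaining members, Nlrp2 and Nlrp4f, encode NACHT and leucine-rich repeat proteins of the same family as NLRP5. Nlrp2 fell in libraries labelled DKO and Nlrp4f did not pass the test. Nlrp2, at chr7:5298547-5351035 on the minus strand, had 206 and 219 CPM in libraries labelled DKO, against 286 and 261 CPM in H2A.Z CTR libraries. Both DKO libraries were below both controls, with a log2 difference of -0.36 ± 0.12 (SE, 95% interval -0.62 to -0.11, edgeR adjusted p = 0.0310). The call was lost when any library of the line was left out, with edgeR adjusted p values of 0.212 without H2A.Z DKO replicate 1, 0.103 without H2A.Z DKO replicate 2, 0.221 without H2A.Z CTR replicate 1 and 0.0762 without H2A.Z CTR replicate 2. Nlrp4f, at chr13:65177111-65205977 on the minus strand, had 1011 and 919 CPM in libraries labelled DKO, against 1007 and 894 CPM in H2A.Z CTR libraries. These overlapped (log2 difference 0.022 ± 0.11, SE, 95% interval -0.21 to 0.25, edgeR adjusted p = 0.898).

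In the DKO comparison 2 of 8 members were thus called, 1 higher and 1 lower, where 30.9% of all tested genes were called (19.4% higher and 11.5% lower). The share of members called was near this background. The groups did not overlap for 4 members, Ooep, Nlrp5, Padi6 and Nlrp2, and for 70.3% of all tested genes. The median log2 fold change was 0.019 over the members and 0.12 over all tested genes, and the median absolute log2 fold change was 0.097 over the members and 0.41 over all tested genes. Each member had at least 206 CPM in every library, while the tested genes included genes near the filter for low counts. Here and below, these medians were not matched for level. The all-gene median was 0.12 with TMM scaling and 0.0018 with library totals. Relative to it, under either scaling, Ooep was at 0.36, Nlrp2 at -0.49, Nlrp5 at -0.60 and Padi6 at -0.23 on the log2 scale. Tle6 and Nlrp4f were at -0.10, Khdc3 at -0.11 and Zbed3 at -0.036 (-0.034 with library totals), so these 4 turned from slightly higher to slightly lower, and none of the 4 passed the test under either scaling. The granulosa, theca and stroma marker sums given above, in which Fshr and Cyp11a1 rose, were higher in libraries labelled DKO. Their part in these values was not tested.

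In Mll2 KO oocytes the member that fell was Khdc3, and the core members did not pass the test. Khdc3 had 414 and 335 CPM in Mll2 KO libraries, against 475 and 584 CPM in Mll2 WT libraries. Both KO libraries were below both WT libraries. The fold change was 0.708, or -0.50 ± 0.13 on the log2 scale (SE, 95% interval -0.76 to -0.23, edgeR adjusted p = 0.00727). Without Mll2 WT replicate 2 the difference was -0.36 and the call was lost (edgeR adjusted p = 0.0778). The oocyte marker sum was also lower and the granulosa and cumulus marker sum higher in Mll2 KO libraries, as given above, and their part in this result was not tested.

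Ooep had 2887 and 2913 CPM in Mll2 KO libraries, against 2892 and 3501 CPM in Mll2 WT libraries (log2 difference -0.14 ± 0.12, SE, 95% interval -0.38 to 0.10, edgeR adjusted p = 0.378). The KO libraries lay close to each other and to the lower of the WT libraries. Nlrp5 had 926 and 1021 CPM in Mll2 KO libraries, against 615 and 1022 CPM in Mll2 WT libraries (log2 difference 0.25 ± 0.17, SE, 95% interval -0.13 to 0.63, edgeR adjusted p = 0.304). This value rested on which WT library was used, being -0.076 without Mll2 WT replicate 1 and 0.65 without Mll2 WT replicate 2 (edgeR adjusted p = 0.00322). Tle6 had 1083 and 1289 CPM in Mll2 KO libraries, against 1246 and 1395 CPM in Mll2 WT libraries. The Tle6 groups overlapped (log2 difference -0.15 ± 0.11, SE, 95% interval -0.39 to 0.08, edgeR adjusted p = 0.317), and the difference passed without Mll2 KO replicate 2 (-0.33, edgeR adjusted p = 0.0104).

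Padi6 had 2309 and 2571 CPM in Mll2 KO libraries, against 1851 and 2357 CPM in Mll2 WT libraries (log2 difference 0.21 ± 0.12, SE, 95% interval -0.05 to 0.47, edgeR adjusted p = 0.202). A WT library lay between the KO libraries. The difference passed with library totals as the scaling (0.34, edgeR adjusted p = 0.0276) and without Mll2 KO replicate 1 (edgeR adjusted p = 0.0365). Zbed3 had 4644 and 5606 CPM in Mll2 KO libraries, against 4815 and 4895 CPM in Mll2 WT libraries (log2 difference 0.078 ± 0.12, SE, 95% interval -0.17 to 0.33, edgeR adjusted p = 0.649). Its KO libraries lay on both sides of the WT libraries. Nlrp2 had 252.5 and 220.3 CPM in Mll2 KO libraries, against 259 and 327 CPM in Mll2 WT libraries. Both KO libraries were low (log2 difference -0.31 ± 0.12, SE, 95% interval -0.56 to -0.06), and the difference missed the threshold (edgeR adjusted p = 0.0604). It passed without Mll2 KO replicate 1 (edgeR adjusted p = 0.00902), without Mll2 WT replicate 1 (0.0257) and with no filter on low counts (0.0196). Nlrp4f had 1109 CPM in each Mll2 KO library, against 1104 and 1216 CPM in Mll2 WT libraries (log2 difference -0.065 ± 0.11, SE, 95% interval -0.29 to 0.16, edgeR adjusted p = 0.681). The KO values lay between the WT values.

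In the Mll2 comparison 1 of 8 members was called, in the lower direction, where 30.6% of all tested genes were called (14.4% higher and 16.2% lower). The groups did not overlap for 2 members, Khdc3 and Nlrp2, and for 64.2% of all tested genes. The median log2 fold change was -0.10 over the members and 0.017 over all tested genes, and the median absolute log2 fold change was 0.18 over the members and 0.40 over all tested genes. The all-gene median was 0.14 with library totals, and relative to it Khdc3 was at -0.51, against -0.52 with TMM scaling. Nlrp4f turned to 0.059 with library totals before the median was taken off.

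The difference between the effects of the mutants was tested directly, as the DKO effect minus the KO effect. It passed for Ooep (0.63 ± 0.16 on the log2 scale, SE, edgeR adjusted p = 0.0130), which was higher in libraries labelled DKO and not in Mll2 KO libraries. This was 1 of 8 members, in the higher direction, where 19.5% of all tested genes were called (12.9% higher and 6.68% lower). The Ooep call was lost without H2A.Z DKO replicate 1 (edgeR adjusted p = 0.0593), H2A.Z DKO replicate 2 (0.0744), H2A.Z CTR replicate 2 (0.0776) or Mll2 WT replicate 2 (0.133), and with library totals as the scaling (0.38, edgeR adjusted p = 0.0649). For Khdc3 the difference was 0.51 ± 0.18 (SE, edgeR adjusted p = 0.0517) and for Nlrp5 it was -0.72 ± 0.25 (SE, edgeR adjusted p = 0.0568), so that neither passed in this fit. The Nlrp5 difference passed in 8 of 15 alternatives, among them DESeq2 (-0.79, adjusted p = 0.00947). It moved to -0.40 without Mll2 WT replicate 1 and to -1.24 without Mll2 WT replicate 2. Of the 8 fits that left out a library, the Nlrp5 difference passed in 1, that without Mll2 WT replicate 2. The Khdc3 difference passed in 3 of 15 alternatives and ran from 0.26 to 0.66 when single libraries were left out. Nlrp2, at -0.36 under the DKO label and -0.31 in Mll2 KO, had a difference of -0.053 (edgeR adjusted p = 0.863).

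**Figure D2:**
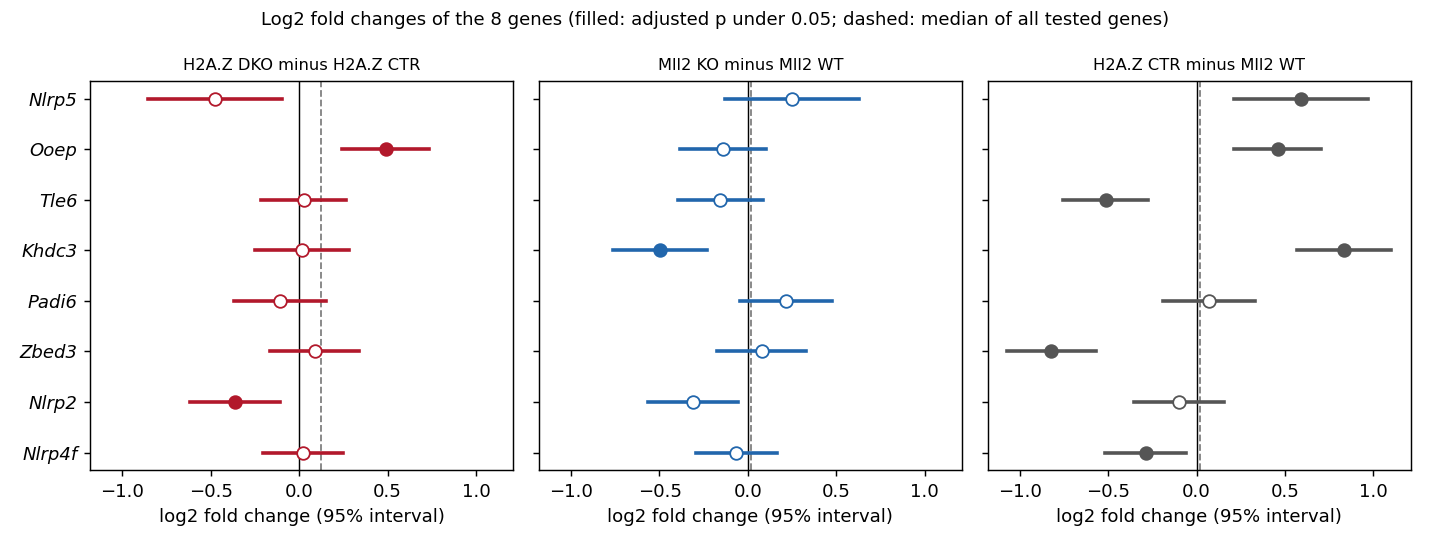
Log2 fold changes with 95% intervals for the 8 genes in libraries labelled H2A.Z DKO against H2A.Z CTR, Mll2 KO against Mll2 WT, and H2A.Z CTR against Mll2 WT, with filled points at an edgeR adjusted p under 0.05 and a dashed line at the median of all tested genes. Ooep (0.49) and Nlrp2 (-0.36) are filled in the DKO panel, Khdc3 (-0.50) in the Mll2 KO panel, and 6 genes in the panel of the control groups.

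The largest log2 differences among the members lay between the control groups of the lines. Khdc3 was higher in H2A.Z CTR than in Mll2 WT libraries by 0.83 ± 0.13 on the log2 scale (SE, edgeR adjusted p = 6.51e-05), Nlrp5 by 0.59 ± 0.17 (0.0149) and Ooep by 0.46 ± 0.12 (0.00425). Zbed3 was lower in H2A.Z CTR libraries, with a log2 difference of -0.82 ± 0.12 (edgeR adjusted p = 4.60e-05), as were Tle6 at -0.51 ± 0.11 (0.00160) and Nlrp4f at -0.29 ± 0.11 (0.0400). Padi6 (0.072 ± 0.12, edgeR adjusted p = 0.668) and Nlrp2 (-0.099 ± 0.12, 0.531) did not pass. The 6 of 8 members called were 3 higher and 3 lower, where 44.3% of all tested genes were called (19% higher and 25.3% lower). The same 6 members did not overlap between the control groups, nor did 75.2% of all tested genes, and the median absolute log2 difference was 0.49 over the members and 0.53 over all tested genes. Line, breeding and any processing day cannot be told apart in this contrast, and it shares its libraries with the mutant comparisons. The Ooep call was lost without Mll2 WT replicate 1 (edgeR adjusted p = 0.102). The Nlrp5 call was lost without H2A.Z CTR replicate 1 (edgeR adjusted p = 0.0749), Mll2 WT replicate 1 (0.168), Mll2 KO replicate 1 (0.200) or Mll2 KO replicate 2 (0.199). The Nlrp4f call held in only 2 of the 8 fits that left out a library, those without a Mll2 KO library. Its edgeR adjusted p reached 0.312 without H2A.Z CTR replicate 2, and it was also lost with DESeq2 (adjusted p = 0.0757) and with genes at 10 CPM or more (0.100). The Khdc3 and Zbed3 calls held in all 16 alternatives run for this contrast. Among these, the fit with a replicate block estimated the difference at replicate 1 of each line.

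The oocyte marker sum given above was 21118 and 20120 CPM in H2A.Z CTR libraries, against 15068 and 18825 CPM in Mll2 WT libraries, and its part in these differences was not tested.

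For 5 of the 8 members, Ooep, Tle6, Khdc3, Zbed3 and Nlrp4f, the 4 libraries of the H2A.Z line did not overlap the 4 of the Mll2 line, and the same held for 40.6% of all tested genes. As a ratio, the gap between the lines was widest for Khdc3 and Zbed3. The lowest Khdc3 value of the H2A.Z line was 913 CPM and the highest of the Mll2 line was 584 CPM. The highest Zbed3 value of the H2A.Z line was 3067 CPM and the lowest of the Mll2 line was 4644 CPM. By counts, Zbed3 held rank 1 of all 35976 symbols in Mll2 KO replicate 2 and held rank 3 in the other Mll2 libraries, while it held ranks between 30 and 40 in the H2A.Z line.

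Levels of different genes were set side by side per kb of the longest annotated transcript. In libraries labelled DKO the mean level was highest for Ooep, at 2882 CPM per kb, followed by Zbed3 at 1502, Padi6 at 881, Khdc3 at 568, Tle6 at 467, Nlrp4f at 272, Nlrp5 at 253 and Nlrp2 at 62.5 CPM per kb. In H2A.Z CTR libraries Ooep had a mean of 2054 and Zbed3 of 1413 CPM per kb, and Nlrp5, at 351, stood above Nlrp4f, at 268 CPM per kb. In Mll2 KO libraries Zbed3 led, at 2635, with Ooep at 1356 and Khdc3 at 223 CPM per kb. In Mll2 WT libraries Zbed3 had 2496, Ooep 1495 and Khdc3 315 CPM per kb on average. Nlrp2 was the lowest member in all 8 libraries, between 60.6 and 96.1 CPM per kb. Nlrp5 and Nlrp4f in libraries labelled DKO, and Khdc3 and Nlrp4f in Mll2 WT libraries, were neighbours in the order whose libraries lay within each other's range or almost touched. Dividing by the mean length of each gene's transcripts raised Padi6 to 1903 and Tle6 to 931 CPM per kb in libraries labelled DKO, so that Padi6 nearly matched Zbed3, at 1952, and Tle6 passed Khdc3, at 799 CPM per kb. By the same measure Padi6 stood above Ooep in Mll2 KO (2261 and 1356 CPM per kb) and in Mll2 WT libraries (1950 and 1495 CPM per kb). In H2A.Z CTR libraries it stood level with Ooep (2049 and 2054 CPM per kb) and above Zbed3 (1836 CPM per kb). The order of Padi6 against Ooep and Zbed3 thus rests on the transcript length used.

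**Figure D3:**
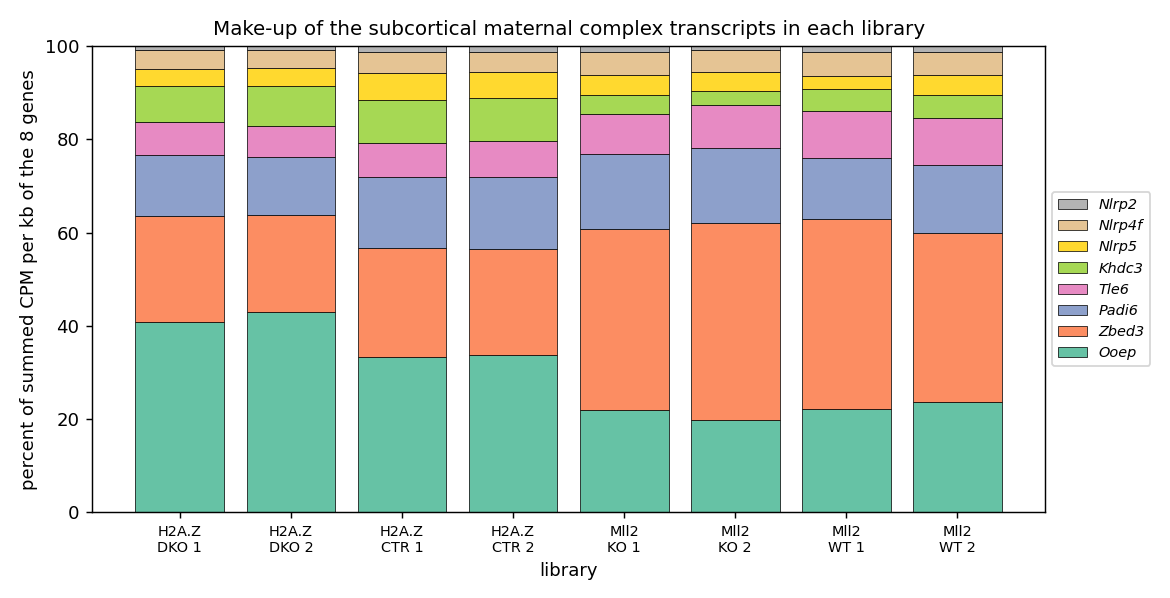
Share of each gene in the summed CPM per kb of the 8 genes, in percent, with one stacked bar per library. Ooep makes up 40.9 and 42.9% in libraries labelled H2A.Z DKO, against 33.3 and 33.7% in H2A.Z CTR, while Zbed3 makes up 38.8 and 42.1% in Mll2 KO, against 40.7 and 36.3% in Mll2 WT.

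Within a library, the ratio of one member to another does not depend on how libraries are scaled. The ratios described here were chosen after the values were seen and carry no test. The ratio of Ooep to Nlrp5 per kb was 11.4 in each library labelled DKO, against 5.80 and 5.89 in H2A.Z CTR libraries. It was 5.12 and 4.68 in Mll2 KO libraries, against 7.71 and 5.62 in Mll2 WT libraries. Both libraries labelled DKO thus held the highest ratios of the 8 libraries for this pair of core transcripts. The ratio of Nlrp5 to Tle6 was 0.514 and 0.569 in libraries labelled DKO, against 0.785 and 0.745 in H2A.Z CTR libraries, and it was 0.491 and 0.455 in Mll2 KO libraries, against 0.284 and 0.421 in Mll2 WT libraries. It was low under the DKO label and high in Mll2 KO libraries, each beside its own controls, without overlap in either line. The ratio of Khdc3 to Ooep was lower without overlap in both mutants. It was 0.191 and 0.203 in libraries labelled DKO, against 0.275 and 0.272 in H2A.Z CTR libraries. In Mll2 KO libraries it was 0.183 and 0.146, against 0.209 and 0.212 in Mll2 WT libraries. The genes behind it differed, with log2 differences under the DKO label of 0.49 for Ooep and 0.017 for Khdc3. In Mll2 KO libraries they were -0.14 for Ooep and -0.50 for Khdc3. As single genes, 70.3% of all tested genes under the DKO label and 64.2% in Mll2 KO did not overlap.

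**Figure D4:**
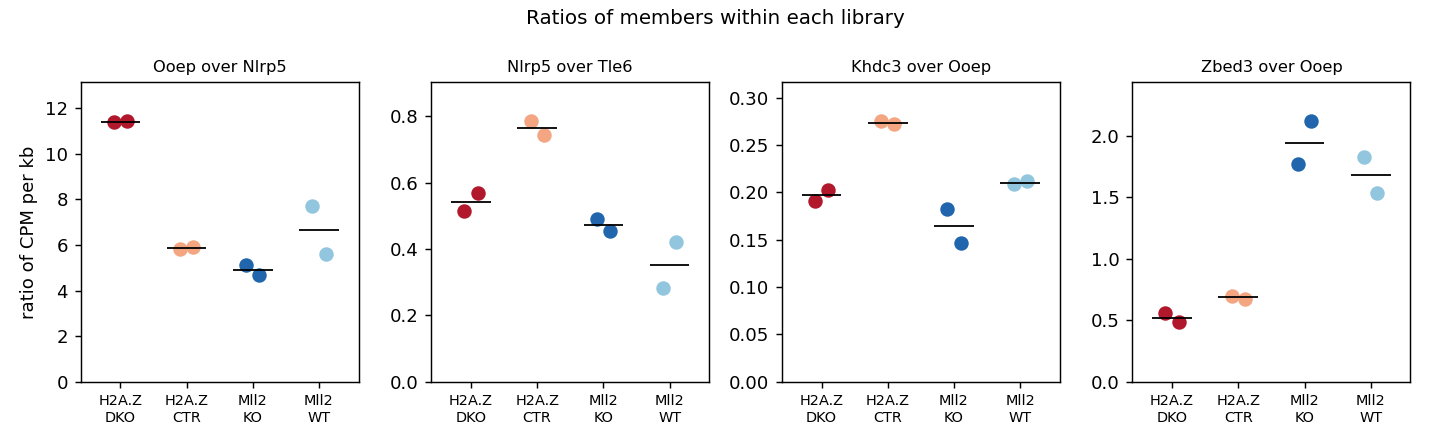
Ratios of CPM per kb between members in every library, with points for libraries and a bar at the group mean. Ooep over Nlrp5 is 11.4 in each library labelled H2A.Z DKO and between 4.68 and 7.71 in the other 6 libraries.

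Together the 8 genes took 1.38 and 1.32% of all counts in libraries labelled DKO, against 1.34 and 1.33% in H2A.Z CTR libraries. They took 1.50 and 1.70% in Mll2 KO libraries, against 1.38 and 1.54% in Mll2 WT libraries. Of all counts, the groups overlapped in both lines. Of the TMM-scaled totals, the scaling of the fits, the 8 genes took 1.525 and 1.49% in libraries labelled DKO, against 1.40 and 1.33% in H2A.Z CTR libraries, without overlap. The scaled shares were 1.36 and 1.51% in Mll2 KO libraries, against 1.33 and 1.53% in Mll2 WT libraries, and overlapped. With 2 libraries against 2, an exact permutation test over libraries cannot give a two-sided p below 0.333.

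The members were also set beside each other by how their log2 CPM moved over the 8 libraries. As a description, the closest members were Tle6 and Nlrp4f, whose centred log2 CPM differed by a root mean square of 0.121, and Ooep was closest to Khdc3, at 0.278. Khdc3 and Zbed3 were the farthest apart, at 0.993. Among 7316 other genes at 10 CPM or more on average, those nearest to Ooep were Dpcd (root mean square difference 0.0518), Eml6 and Ndufs4, and those nearest to Nlrp5 were Edn1 (0.124), Cenpl and Tbcb. Those nearest to Tle6 were Dnaja3 (0.0519), Nelfcd and Foxj3, and those nearest to Khdc3 were Tcl1b5 (0.0388), Bpgm and Fbxw27. Padi6 was nearest to Smim4 (0.0793), Tmem230 and Pole3, and Zbed3 to Arf1 (0.0302), Smarcal1 and Map2k1. Nlrp2 was nearest to Snap23 (0.0681), Kif20b and Mios, and Nlrp4f to Ywhaq (0.0386), Rad50 and Diaph3. About their own means, Padi6, Nlrp4f and Tle6 moved by a root mean square of only 0.139, 0.141 and 0.231. Ranked over the 4 group means instead, Tcl1b5, Smim4 and Arf1 stayed at rank 1. Others moved, such as Eml6 to rank 22 for Ooep and Pole3 to rank 42 for Padi6. All these values share the same libraries and their scaling.

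The genes beside the members were read from RefSeq positions, as the nearest tested gene on each side. Dppa5a, which encodes a KH-domain protein and lies 8704 bases from Ooep, had 320 and 220 CPM in Mll2 KO libraries, against 379 and 435 CPM in Mll2 WT libraries (log2 difference -0.59 ± 0.16, SE, edgeR adjusted p = 0.0107). Rsl24d1, a ribosome biogenesis gene 6838 bases from Khdc3, had 54.1 and 49.2 CPM in Mll2 KO libraries, against 68.0 and 81.7 CPM in Mll2 WT libraries (-0.54 ± 0.12, edgeR adjusted p = 0.00320). Both fell in Mll2 KO libraries, and both lost the call without Mll2 WT replicate 2, as Khdc3 did. Of the members beside them, Khdc3 was called lower, while Ooep, beside Dppa5a, was not called. The Dppa5a difference was -0.88 without Mll2 KO replicate 1 and -0.39 without Mll2 KO replicate 2. Rcc2, a regulator of chromosome condensation 4135 bases from Padi6, rose in libraries labelled DKO (1.11 ± 0.22, edgeR adjusted p = 0.00174) and in Mll2 KO libraries (1.06 ± 0.21, edgeR adjusted p = 0.00181), where Padi6 itself did not pass in the fit of all 8 libraries. The Mll2 KO libraries stood apart for Rcc2, at 39.7 and 71.6 CPM, against 28.7 and 24.8 CPM in Mll2 WT libraries, and the difference was 1.43 without Mll2 KO replicate 1 and 0.53 without Mll2 KO replicate 2. Rasl2-9, a Ras family gene and the nearest tested gene before Nlrp2, 172597 bases away, fell under the DKO label (-0.88 ± 0.22, edgeR adjusted p = 0.00666) and in Mll2 KO libraries (-1.07 ± 0.22, edgeR adjusted p = 0.00174). Its DKO call was lost without H2A.Z DKO replicate 1 (edgeR adjusted p = 0.0918) or H2A.Z CTR replicate 2 (0.0618). Gna11, a G protein subunit gene 45742 bases from Tle6, rose in Mll2 KO libraries (0.44 ± 0.15, edgeR adjusted p = 0.0393), and Snora47, a small nucleolar RNA gene within Zbed3, rose under the DKO label (1.31 ± 0.44, edgeR adjusted p = 0.0423). Each of these last calls passed in only 2 of the 8 fits that left out a library, with edgeR adjusted p values up to 0.273 for Gna11 and 0.271 for Snora47. The other 9 neighbours, Nlrp4e, Zfp180, Ddx43, BC025920, Rab27a, Padi4, Pde8b, Mfsd14b and Zfp369, were not called in either mutant comparison. Under the DKO label the neighbours called were thus Rcc2, Rasl2-9 and Snora47, where 30.9% of all tested genes were called. In Mll2 KO libraries they were Dppa5a, Rsl24d1, Rcc2, Rasl2-9, Gna11 and Gm5065, given below, where 30.6% of all tested genes were called.

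Reads of some members may not be told apart from those of a partner. For overlapping genes the reason is that the use of strand in counting is not given in the sources used here. For partial copies the reason is the shared sequence. Gm5065, a transcribed pseudogene at chr7:5350542-5360682, overlaps the start of Nlrp2. It had 180 and 219 CPM in libraries labelled DKO, against 247 and 240.5 CPM in H2A.Z CTR libraries, and 63.9 and 43.8 CPM in Mll2 KO libraries, against 135 CPM in each Mll2 WT library. It fell in Mll2 KO libraries (log2 difference -1.33 ± 0.15, SE, edgeR adjusted p = 8.87e-06), so the Nlrp2 values are uncertain, also through the partial copy named below. Nlrp4f shares 2059 bases at 92.6% identity with Nlrp4g, which had between 88.0 and 287 CPM, and its values are uncertain to that extent. The pseudogene Nlrp5-ps shares 688 bases at 97.8% identity with Nlrp5 and had at most 1.15 CPM. Gm20509 shares 361 bases with Khdc3, and Gm9136 and Gm5190 share 447 and 357 bases with Tle6, at 92.2 to 98.1% identity. Gm21926 shares 680 bases at 91.2% identity with Nlrp2, and Gm47180 shares 446 bases at 91.5% identity with Nlrp4f. Gm20509, Gm9136, Gm5190, Gm21926 and Gm47180 were not among the symbols of the count table, so their levels could not be read. No other gene shared 300 or more bases at 90% identity with Ooep, Padi6 or Zbed3. Tle2, which overlaps Tle6, had at most 0.405 CPM.

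Other genes of the oocyte around the complex were counted from lists. The lists overlap, so their counts are not separate. Uhrf1 was in the lattice and maternal-effect lists, and Nlrp14 in these and in the oocyte Nlrp list. Of 5 tested genes whose proteins have been reported at the cytoplasmic lattices, 1 was called higher in libraries labelled DKO, and 3 lower and 1 higher in Mll2 KO libraries. Of all tested genes, 19.4% were called higher and 11.5% lower under the DKO label, and 14.4% higher and 16.2% lower in Mll2 KO libraries. The 3 that fell were Fbxw21, an F-box gene (log2 difference -0.82 ± 0.17, SE, edgeR adjusted p = 0.00237), Ube2d3, a ubiquitin-conjugating enzyme gene (-0.47 ± 0.11, edgeR adjusted p = 0.00582), and Skp1a, which encodes the adaptor of F-box ubiquitin ligases (-0.66 ± 0.16, edgeR adjusted p = 0.00675). The Skp1a call was lost without Mll2 KO replicate 2 (edgeR adjusted p = 0.0521) or Mll2 WT replicate 2 (0.0615). Uhrf1, which encodes a regulator of DNA methylation, rose in libraries labelled DKO (0.59 ± 0.12, edgeR adjusted p = 0.00191) and in Mll2 KO libraries (0.39 ± 0.12, edgeR adjusted p = 0.0219). Its Mll2 KO call was lost without Mll2 KO replicate 2 (0.12, edgeR adjusted p = 0.302), Mll2 WT replicate 1 (0.111) or Mll2 WT replicate 2 (0.129), and the difference was 0.60 without Mll2 KO replicate 1.

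Of 9 tested oocyte Nlrp genes outside the complex, 0 were called by edgeR in libraries labelled DKO (2 at an unadjusted p under 0.05, 1 lower by DESeq2, median log2 fold change -0.080) and 5 were called lower in Mll2 KO libraries (median -0.49), beside 16.2% of all tested genes. The one with the smallest p was Nlrp9b (-0.95 ± 0.14, edgeR adjusted p = 9.50e-05). The other 4, Nlrp4a, Nlrp9a, Nlrp9c and Nlrp4c, had edgeR adjusted p values between 0.0138 and 0.0398. They lost the call without Mll2 WT replicate 2, with edgeR adjusted p values of 0.0694, 0.353, 0.139 and 0.257 in that order. Of the 8 fits that each left out a library, Nlrp4a passed in 7, Nlrp9c in 6, Nlrp9a in 5 and Nlrp4c in 2. Among 30 maternal-effect genes, 10 were called higher and 2 lower in libraries labelled DKO (19.4% and 11.5% of all tested genes), and their median of 0.14 was close to the all-gene median of 0.12. In Mll2 KO libraries 3 were called higher and 9 lower (14.4% and 16.2% of all tested genes, median -0.089 against 0.017 over all genes).

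Of the 6 maternal-effect genes with the smallest p, Pabpn1l, which takes part in maternal mRNA decay, fell in libraries labelled DKO (-1.10 ± 0.13, edgeR adjusted p = 1.73e-05). Zfp445, a zinc finger gene that guards imprints, rose in libraries labelled DKO (1.20 ± 0.16, edgeR adjusted p = 5.41e-05) and fell in Mll2 KO libraries (-0.91 ± 0.15, edgeR adjusted p = 0.000388). Trim28, the corepressor of such zinc finger proteins, rose in libraries labelled DKO (0.96 ± 0.14, edgeR adjusted p = 0.000139) and in Mll2 KO libraries (0.99 ± 0.14, edgeR adjusted p = 6.98e-05). Ago2, a small RNA effector gene, fell in both, with differences of -0.83 ± 0.13 under the DKO label (edgeR adjusted p = 0.000210) and -0.88 ± 0.13 in Mll2 KO libraries (edgeR adjusted p = 0.000105). Dicer1, which encodes the small RNA processing enzyme, rose in libraries labelled DKO (0.58 ± 0.10, edgeR adjusted p = 0.000604). Bnc1, a zinc finger gene, rose in libraries labelled DKO (0.74 ± 0.11, edgeR adjusted p = 0.000181) and fell in Mll2 KO libraries (-0.33 ± 0.11, edgeR adjusted p = 0.0312), where its call passed in only 3 of the 8 fits that left out a library, with edgeR adjusted p values up to 0.145.

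Of 10 tested transcription factor genes of the oocyte, 5 were called higher in libraries labelled DKO (median log2 fold change 0.27), and 2 higher and 1 lower in Mll2 KO libraries (median 0.025), beside the shares of all tested genes given above. The 5 were Gtf2b (0.52, edgeR adjusted p = 0.00488), Foxo3 (0.62, 0.0163), Figla, Obox5 (0.39, 0.0241) and Taf4b (0.47, 0.0245). Of the 8 fits that left out a library, Gtf2b passed in 6, Figla in 4, and Foxo3, Obox5 and Taf4b in 3 each. In Mll2 KO libraries Taf4b rose (0.74, edgeR adjusted p = 0.00122, in 8 of 8 such fits), Lhx8 rose (0.34, 0.0202, in 5 of 8) and Obox5 fell (-0.36, 0.0378, in 1 of 8). Figla, whose protein binds E-boxes in oocyte promoters, had 111 and 125 CPM in libraries labelled DKO, against 91.9 and 89.98 CPM in H2A.Z CTR libraries (0.38, edgeR adjusted p = 0.0228). That call was lost with library totals as the scaling (edgeR adjusted p = 0.115), without either H2A.Z CTR library (0.107 and 0.145), without H2A.Z DKO replicate 2 (0.209) and without Mll2 WT replicate 2 (0.154). Of 8 tested genes from the Khdc and Dppa5a group and its chromosomal surroundings, 0 were called by edgeR in libraries labelled DKO (2 at an unadjusted p under 0.05, 1 lower by DESeq2, median 0.057), and 1, Dppa5a, was called lower in Mll2 KO libraries (median -0.11). Of all tested genes, 30.9% were called under the DKO label, and 16.2% were called lower in Mll2 KO libraries.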

How the data were processed

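The authors deposited a table of whole-number counts per gene symbol for 8 libraries, not normalized. RSEM 1.3.1, STAR 2.7.3 and Trim Galore 0.6.4 are the tools, and mm10 the build, per the submitters' processing notes. Their settings, the gene annotation and the use of strand were not given in the sources used here. Whole reads are not unique molecules, so precision covers counting and library spread only.

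All 8 libraries entered 1 fit in R 4.3.3 with edgeR 4.0.16, using 4 group means, genes kept by filterByExpr (16847 of 35976 symbols, 8787 of which were at 0 in every library), TMM scaling and the robust quasi-likelihood test with 4 residual degrees of freedom. The median prior degrees of freedom were 11.8, so the spread used for each gene was drawn also from other genes. A gene was called where its p, adjusted by Benjamini-Hochberg over all tested genes, was under 0.05. The members, the lists and the rule for naming genes were chosen with earlier results of these data known. By that rule all 8 members are named in every contrast, with for each the 3 nearest genes by centred log2 CPM (prior count 2), its chromosomal neighbours, up to 6 called genes of each list by smallest p, and the targeted genes. Transcript lengths and the coordinates of the members came from GENCODE M21. RefSeq gave positions for 32501 symbols, from which neighbours, distances and overlaps were read. The promoter windows also came from RefSeq, where all 8 members matched. Similar transcripts were found with BLAST 2.17.0. Replicate numbers did not pair the samples: no label ties a number to a litter or day, and the deviations of same-numbered libraries correlated by 0.040 in the H2A.Z line and -0.022 in the Mll2 line. Other scalings, filters, DESeq2 1.42.0, each line alone, a replicate block and leaving out each library were tried as alternatives.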

Additional observations from a re-analysis of the deposited data

Results flagged for a closer look

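The effect under the H2A.Z DKO label minus the effect of the Mll2 KO was tested directly with edgeR's interaction contrast. The results named here passed it at an adjusted p under 0.05, as did 19.5% of all tested genes. Except for the targeted genes, those outside the complex were named because they were called in a mutant comparison. That comparison used the same libraries, so their passing here is no separate support. Alternatives of this contrast were recorded only for the members. Among the members, Ooep had a difference of 0.63 on the log2 scale, from an effect of 0.49 under the DKO label and of -0.14 in Mll2 KO. The Ooep call was lost in the alternatives given above. Of the maternal-effect genes, Zfp445 differed by 2.11, Bnc1 by 1.07, Dicer1 by 0.61 and Pabpn1l by -1.35. Of the lattice genes, Skp1a differed by 0.99 and Fbxw21 by 0.86. Of the transcription factor genes, Obox5 differed by 0.75 and Gtf2b by 0.61. Of the other Nlrp genes, Nlrp4c differed by 0.89 and Nlrp9b by 0.64. Beside the members, Rsl24d1 differed by 0.52 and Gm5065 by 1.04. The targeted genes differed by 2.28 (H2afz), 1.24 (H2afv) and 2.72 (Kmt2b), and the H2afz and H2afv effects under the DKO label were positive, at 3.56 and 1.43. Positive values mean a higher effect under the DKO label than in Mll2 KO.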

How the results depend on the processing

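With 2 libraries a group, leaving out 1 leaves a lone library that is assumed to vary like the other groups. Over all members, contrasts and settings, 396 values kept their direction and side of the threshold, 29 lost and 31 gained the call, and 56 reversed. Signs turned under the DKO label with DESeq2 and with relative log expression (RLE) scaling for Khdc3 (-0.026), Tle6 (-0.017) and Nlrp4f (-0.021). They also turned with library totals, the line alone or without both Mll2 KO libraries (an alternative chosen after seeing the data) for Khdc3 (-0.11), Tle6 (-0.096, -0.099 and -0.098), Nlrp4f (-0.098, -0.10 and -0.10) and Zbed3 (-0.033, -0.037 and -0.036). In Mll2 KO, Nlrp4f turned to 0.059 with library totals. The interaction turned with library totals for Nlrp4f (-0.16), Tle6 (-0.067) and Zbed3 (-0.24), and for Zbed3 also with DESeq2 and RLE scaling (-0.058) and at 10 CPM or more (-0.025). The cause of these turns was not tested.

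Members called lower under the DKO label numbered 2 with RLE scaling, library totals, no filter, DESeq2 or no robust estimation, and 3 in the line alone. In Mll2 KO, 1 was called higher with library totals and 2 lower with no filter. In the interaction, members called higher numbered 0 with library totals and 2 with no filter, and those called lower 2 with library totals and 1 with RLE scaling, no filter, DESeq2, no robust estimation or at 10 CPM or more. Over all genes, the DKO label gave 2063 higher with library totals, and 1060 lower at 10 CPM or more, 3485 in the line alone and 3394 without both Mll2 KO libraries. Mll2 KO gave 1445 higher and 1569 lower at 10 CPM or more. The interaction gave 1096 higher and 1866 lower with library totals, and 1392 and 662 at 10 CPM or more. With TMM-scaled totals the members' mean share was 1.51% under the DKO label, against 1.37% in H2A.Z CTR, where the groups no longer overlapped, and 1.43% in Mll2 KO, against 1.43% in Mll2 WT.

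Replicate numbers did not pair the samples. A fit with a replicate block called 2 members lower under the DKO label (Nlrp5 at -0.47, edgeR adjusted p = 0.0176, was gained) and 1 lower in the interaction. Between the control groups that fit estimated the difference at replicate 1 of each line, which is not the quantity of the main fit. There it called 1 member lower, Tle6 (edgeR adjusted p = 0.0698) and Nlrp4f (0.420) did not pass, and 1793 genes were higher.

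When each library was left out in turn, genes called under the DKO label ranged from 1496 to 3188 higher and from 1115 to 3381 lower, in Mll2 KO from 990 to 3351 and from 1691 to 3468, in the interaction from 918 to 2596 and from 578 to 2178, and between the control groups from 1840 to 3823 and from 3191 to 4839. Members called ranged from 0 to 1 higher and from 0 to 2 lower in each mutant, from 0 to 2 each way in the interaction, and from 1 to 3 higher and from 2 to 3 lower between the control groups. Values that turned ranged under the DKO label from -0.097 to 0.081 (Tle6), -0.11 to 0.083 (Khdc3), -0.034 to 0.16 (Zbed3) and -0.10 to 0.11 (Nlrp4f), in Mll2 KO from -0.076 to 0.65 (Nlrp5) and -0.11 to 0.22 (Zbed3), in the interaction from -0.073 to 0.27 (Tle6), -0.25 to 0.086 (Zbed3), -0.33 to 0.11 (Nlrp2) and -0.089 to 0.18 (Nlrp4f), and between the control groups from -0.096 to 0.24 (Padi6) and -0.26 to 0.063 (Nlrp2).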
